A study of Homo sapiens with 2 samples.

Results

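The 10 nuclear genes described here encode proteins that transcribe the mitochondrial genome and process, stabilise and degrade its RNA: POLRMT, TFAM, TFB2M, TRMT10C, HSD17B10, ELAC2, LRPPRC, SLIRP, SUPV3L1 and PNPT1. They were chosen by name from the 56303 genes of the deposited table, and all 10 were found. Both libraries came from HUH7 cells, an established human hepatocellular carcinoma line: 1 library of RNA recovered with an antibody against the zinc-finger spliceosome protein ZMAT2 (the ZMAT2 IP) and 1 library of RNA from lysate set aside before precipitation (Input). The labels name no genotype change, treatment or time point for either. A control precipitation with rabbit IgG is described in the labels and was not analysed here, so a gene that stands higher in the IP has not thereby been shown to bind ZMAT2. Each group held a single library, so there is no replicate check and no p-value is given. Every difference is one between these 2 libraries.

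Mitochondrial DNA is transcribed by a single-subunit RNA polymerase into long transcripts that run through many genes. Most mRNAs and both rRNAs in them are flanked by tRNAs, and cutting the tRNAs out at their 5′ ends and then at their 3′ ends frees the other RNAs. The freed mRNAs are bound and stabilised by an RNA-binding complex, and surplus and antisense RNA is removed by a helicase and exonuclease pair. All proteins of this system are encoded in the nucleus, translated in the cytosol and imported, so the reads counted for these 10 genes come from nuclear and cytosolic RNA and not from RNA inside mitochondria.

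Gene-assigned reads numbered 25047635 for the IP library, against 23485789 for Input. Mitochondrially encoded RNA took 6.50% of the reads in the IP and 2.66% in Input. All 9 hepatocyte markers examined had at least 100 reads in each library, and summed to 15349 CPM (reads per 1000000 reads of the scaled library) in the IP, against 21624 CPM in Input. Of the markers of other cells, CD3E, COL1A1, DCN, CDH5 and KRT7 had no read in either library, and 6 others had at most 10.4 CPM in the IP, against 14.0 CPM in Input. SOX9 and KRT19, which liver cancer cells can also express, reached 122.6 and 54.2 CPM in the IP, against 103.6 and 29.4 CPM in Input.

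POLRMT and ELAC2 stood about 2-fold higher in the ZMAT2 IP than in Input, TFAM stood about 2-fold lower, and the other 7 members lay between log2 ratios of -0.32 and 0.22. The median log2 ratio of IP over Input was 0.00 for the 10 members (from -0.99 to 1.06) and 0.01 for all 17915 genes kept, those whose reads summed over the libraries came to at least 20. Ratios were scaled with TMM, which centres them on the bulk of genes, so they do not measure absolute recovery. A gene was called when its ratio was at least 2-fold and its exact 95% counting interval excluded 0 on the log2 scale. By that rule 1 member, POLRMT, was called higher in the IP and none lower. Over all genes kept, 7.41% were called higher and 6.96% lower, so a single call among 10 genes is close to the background. Among nuclear protein-coding genes with at least 1000 reads, a depth that 9 of the members reached, the shares were 3.96% and 2.61%. Without the TMM factors, on library totals, the share of all calls that were higher was 39.6% in place of 51.6%. With the mitochondrially encoded genes left out before scaling, the log2 ratios were 1.06 for POLRMT, 0.996 for ELAC2 and -0.99 for TFAM, hardly moved from their values with those genes. All members were well covered, with 866 to 8799 reads each, summed over the libraries.

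**Figure D1:**
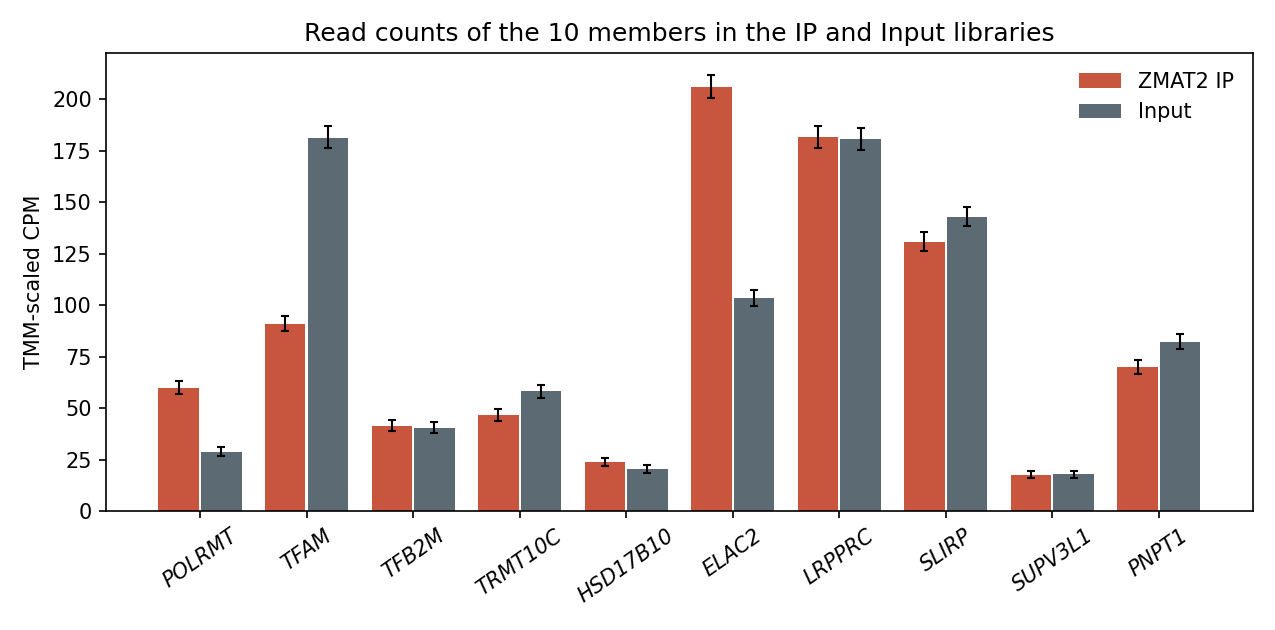
TMM-scaled CPM (y axis) of the 10 members, with the ZMAT2 IP library left and the Input library right for each gene. Bars are single libraries and error bars 95% Poisson counting intervals. POLRMT and ELAC2 are taller in the IP, TFAM is taller in Input, and the remaining genes differ little.

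The 3 members that start transcription gave 3 different results. POLRMT, the mitochondrial RNA polymerase itself, lies on chromosome 19 from 617224 to 633604 (GRCh38). It had 1447 reads (59.9 CPM) in the IP, against 701 (28.8 CPM) in Input. Its log2 ratio was 1.06 (0.93 to 1.19), or 2.08-fold, and counted in pairs of reads, since the 2 mates of a pair seem to add a read each, the interval was 0.88 to 1.25. This interval excluded 0 but reached below 2-fold, and on library totals the ratio was 0.95 and the call was lost. Of the 6589 nuclear protein-coding genes with at least 1000 reads, 214 (3.25%) had a higher ratio than POLRMT.

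TFAM, the HMG-box protein that bends the promoter DNA for initiation and packages the mitochondrial genome, lies on chromosome 10 from 58385022 to 58399221. It had 2201 reads (91.1 CPM) in the IP, against 4422 (181.5 CPM) in Input. Its log2 ratio was -0.99 (-1.07 to -0.92), a level 1.99-fold lower in the IP. It stood just short of the 2-fold line, and on library totals, with upper-quartile factors or with factors from genes of at least 100 reads it was called lower. Of the nuclear protein-coding genes with at least 1000 reads, 2.69% had a lower ratio.

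TFB2M, the factor that melts the promoter with the polymerase, lies on chromosome 1 from 246540560 to 246566324. It had 1002 reads (41.5 CPM) in the IP, against 988 (40.6 CPM) in Input, which gave a log2 ratio of 0.03 (-0.10 to 0.16). The interval included 0. The counts of these 3 genes within one library can also be set against each other, which needs no scaling between libraries. Per kilobase of exon, the level of POLRMT was 0.719 of that of TFAM in the IP (0.673 to 0.769) and 0.173 of it in Input (0.160 to 0.188). This quotient was 4.15-fold higher in the IP, a log2 difference of 2.05 (1.90 to 2.20). POLRMT and TFAM had the highest and the lowest ratio of the 10 members. The interval covers counting error only and takes no account of that. Against TFB2M, POLRMT was 2.04-fold higher in the IP than in Input and TFAM 2.04-fold lower, so the 2 genes lay at nearly equal distances on either side of it.

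The start regions of the members were also searched for short sequence motifs. RefSeq promoter windows on GRCh38.p14 were found for all 10 members, and the 250 bases before the annotated start were searched on both strands for GCGC followed, after any 1 base, by TGCGC. This is the core of the site for NRF1, a transcription factor known to act on nuclear genes for mitochondrial proteins. The core was found in 11.8% of the promoters of 10674 protein-coding genes with at least 20 reads. Among the 10 members it was found for 2, which is close to that share, namely POLRMT, with 2 overlapping matches, and TFAM. The 30 bases around the matches, shown because these members had ratios of opposite sign, read as follows, with the matches in capitals and each stretch given 5′ to 3′ on the gene's own strand (POLRMT, minus, chr19:633539-633568; TFAM, plus, chr10:58385337-58385366).
POLRMT: ggcgcggGCGCATGCGCAGGCGCgggccgg
TFAM: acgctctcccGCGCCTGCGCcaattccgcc
The matches begin 24 bases before the RefSeq start of POLRMT and 63 before that of TFAM, and all 30 bases of both stretches lie inside exons of the deposited, wider gene models. The letters CCGGAAG, a core of ETS factor sites, were found for POLRMT, TRMT10C, ELAC2 and SLIRP and in 18.6% of the promoters. Both motifs were picked after the sequences had been seen. A match is a run of letters and not a measured site, and neither motif separated the higher from the lower members, since POLRMT and TFAM share the first and POLRMT and SLIRP the second.

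The members that cut tRNAs out of the transcripts also differed among themselves. ELAC2, the RNase Z that cleaves at the 3′ end of tRNAs, in the nucleus as well as in mitochondria, lies on chromosome 17 from 12992391 to 13018187. It had 4979 reads (206.2 CPM) in the IP, against 2521 (103.5 CPM) in Input. Its log2 ratio was 0.99 (0.93 to 1.06), or 1.99-fold, just short of the line, and it passed 2-fold with factors from all genes with a read. Of the nuclear protein-coding genes with at least 1000 reads, 4.02% had a higher ratio.

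TRMT10C and HSD17B10 encode the methyltransferase and the dehydrogenase that together form the platform of mitochondrial RNase P, which cleaves at the 5′ end. TRMT10C, at 101561862 to 101566446 on chromosome 3, had 1125 reads (46.6 CPM) in the IP, against 1417 (58.2 CPM) in Input, which gave a log2 ratio of -0.32 (-0.43 to -0.21). HSD17B10, at 53431258 to 53434373 on chromosome X, had 574 reads (23.8 CPM) in the IP, against 496 (20.4 CPM) in Input. Its log2 ratio of 0.22 (0.05 to 0.40) had an interval of -0.03 to 0.47 counted in pairs, which included 0. Both genes stood close to the bulk, on opposite sides of it. The level of TRMT10C per kilobase was 1.16 of that of HSD17B10 in the IP (1.05 to 1.28) and 1.69 of it in Input (1.52 to 1.87). The nuclease of the same enzyme, PRORP, was not a member. It had 475 reads in the IP, against 619 in Input, with a log2 ratio of -0.37 (-0.54 to -0.19), shares 45.9% of its exon bases with other genes, and was named after its value was seen. Per kilobase, TRMT10C stood at 0.759 of the level of ELAC2 in the IP and 1.89 of it in Input, a 2.49-fold difference between the libraries.

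**Figure D2:**
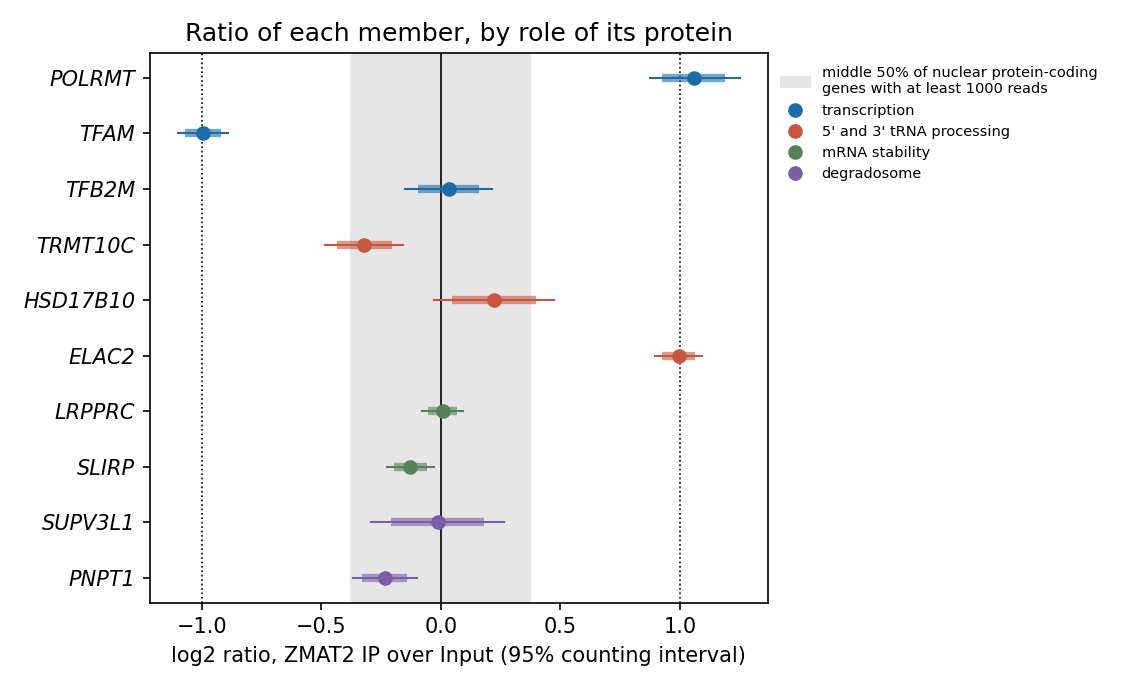
Log2 ratio of ZMAT2 IP over Input (x axis) for each member, coloured by role. Thick bars are 95% counting intervals on reads, thin lines those on pairs of reads, dotted lines mark 2-fold, and the grey band, from -0.38 to 0.37, holds the middle 50% of nuclear protein-coding genes with at least 1000 reads. The points of the 7 members other than POLRMT, ELAC2 and TFAM lie within the band.

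The 2 members that stabilise mitochondrial mRNA lay close to the bulk of genes. LRPPRC, a pentatricopeptide-repeat RNA-binding protein, lies on chromosome 2 from 43886508 to 43996005. It had 4392 reads (181.9 CPM) in the IP, against 4407 (180.9 CPM) in Input, and its log2 ratio of 0.01 (-0.05 to 0.07) was, with the most reads of any member, also the most narrowly bounded. SLIRP, its small RNA-binding partner, lies at 77708071 to 77761104 on chromosome 14 and had 3162 reads (130.9 CPM) in the IP, against 3484 (143.0 CPM) in Input. Its log2 ratio was -0.13 (-0.20 to -0.06), a 1.09-fold difference. SLIRP was the one member that shares exon bases with other genes, 14.9% of them. Of these, 118 bases lie in SNW1, on the opposite strand, with 2461 reads in the IP against 2777 in Input, and 275 in SLIRP-OT1, with 7 and 5 reads. How reads in shared bases were counted is not given in the sources used here, so some reads of SLIRP may belong to SNW1.

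The members of the degradosome were likewise near the bulk. SUPV3L1, the helicase that unwinds RNA for decay, lies on chromosome 10 from 69180232 to 69209099. It had 429 reads (17.8 CPM) in the IP, against 437 (17.9 CPM) in Input, which gave a log2 ratio of -0.01 (-0.21 to 0.18). PNPT1, the polynucleotide phosphorylase that degrades the unwound strand, lies on chromosome 2 from 55634265 to 55693910. It had 1689 reads (69.9 CPM) in the IP, against 2005 (82.3 CPM) in Input, which gave a log2 ratio of -0.23 (-0.33 to -0.14). The level of SUPV3L1 per kilobase was 0.304 of that of PNPT1 in the IP and 0.261 of it in Input, and the log2 difference was 0.22 (0.01 to 0.43). Counted in pairs, its interval of -0.08 to 0.52 included 0.

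Counting intervals alone separate most abundant genes from 0 and are no sign of a difference between conditions. Of the 10 members, 3 had an interval wholly above 0 and 4 wholly below, and 2 and 4 when counted in pairs. The shares were 41.3% above and 44.1% below among the nuclear protein-coding genes of at least 1000 reads. At a threshold of 1.5-fold, POLRMT and ELAC2 were called higher and TFAM lower, where 15.1% and 13.6% of such genes passed. The reads of all 10 members summed to 869.6 CPM in the IP, against 857.0 CPM in Input, so the sum over the members hardly differed between the libraries.

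**Figure D3:**
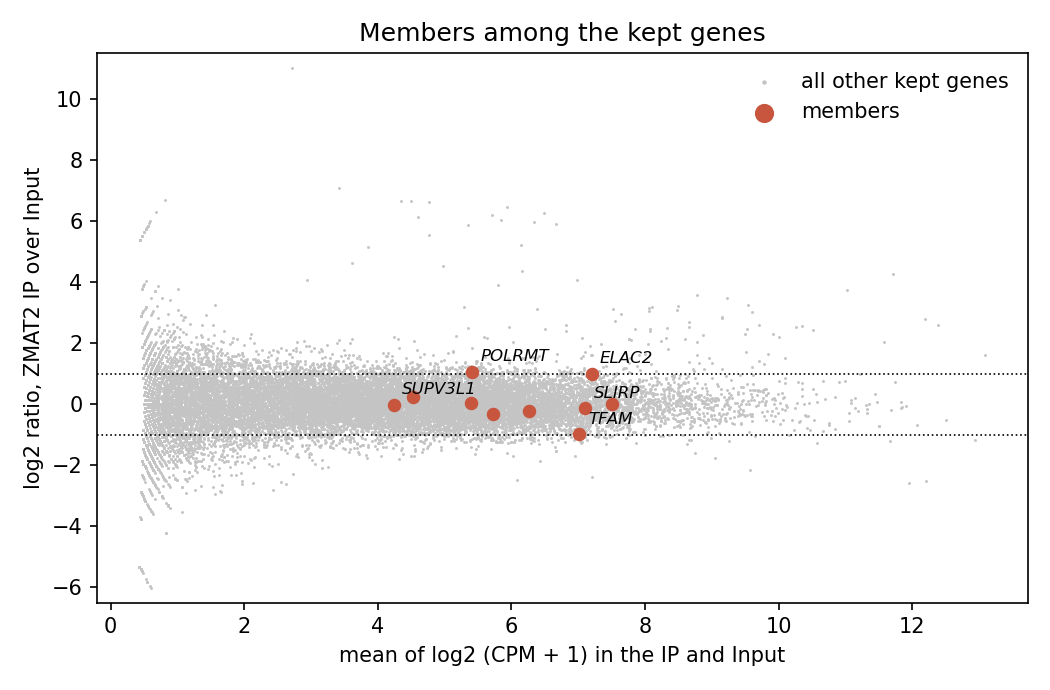
Log2 ratio of ZMAT2 IP over Input (y axis) against the mean of log2 (CPM + 1) in both libraries (x axis) for all 17915 genes kept, with the 10 members as large points. Dotted lines mark 2-fold, and genes with no read in one library are drawn at their ratio with 0.5 reads added. The members lie inside the main cloud, with POLRMT and ELAC2 at its upper and TFAM at its lower edge.

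The order of the members by level also differed between the libraries. In TMM-scaled CPM per kilobase of exon (RPKM), SLIRP was the highest member, at 49.8 in the IP and 54.4 in Input, and SUPV3L1 the lowest, at 4.15 and 4.19. ELAC2 stood second in the IP at 32.5 RPKM and seventh in Input at 16.3 RPKM. TFAM stood seventh in the IP at 16.3 RPKM and second in Input at 32.4 RPKM, so the 2 genes changed places. In the IP, TRMT10C, TFB2M and HSD17B10, at 24.7, 22.5 and 21.3 RPKM, had intervals that overlapped from each to the next. In Input this held for TFAM and TRMT10C, at 32.4 and 30.8 RPKM, and for LRPPRC, HSD17B10, ELAC2 and PNPT1, which ran from 18.5 to 16.0 RPKM. These intervals cover counting error only.

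The members differ widely in gene structure, and their ratios followed none of its measures closely. Exon blocks ranged from 3 in TRMT10C to 40 in LRPPRC and gene span from 3116 bases in HSD17B10 to 109498 in LRPPRC. Across the 10 members the rank correlation between log2 ratio and gene structure was -0.05 for the span of the gene, -0.04 for its exon length and 0.28 for its number of exon blocks. Across the 6589 abundant nuclear protein-coding genes these were -0.18, -0.05 and 0.10. They are descriptions across genes, which are not independent replicates. POLRMT and ELAC2, with 19 and 21 blocks, span 16381 and 25797 bases, while TFAM, with 8 blocks, spans 14200.

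Of the 65 other nuclear genes listed for mitochondrial RNA metabolism and mitochondrial DNA maintenance, 4 were called higher and none lower. Their median log2 ratio was 0.08. The shares over all genes kept were, as above, 7.41% and 6.96%. All 4 were also free of shared exon bases. RCC1L, a factor of mitochondrial ribosome assembly, had 1500 reads in the IP, against 581 in Input, with a log2 ratio of 1.38 (1.24 to 1.52). DHX30, a helicase of mitochondrial RNA granules, had 4321 reads in the IP, against 2147 in Input, and stood at 1.02 (0.95 to 1.10). FASTK, with 176 reads in the IP, against 74 in Input, stood at 1.26 (0.86 to 1.67), and GTPBP3, which helps to modify the wobble base of mitochondrial tRNAs, at 1.02 (0.80 to 1.24). On library totals, 2 of these calls were left.

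By role, the 7 further transcription genes had a median of -0.12, with 1 above 0, and the termination factor family member MTERF1 lay farthest out at -0.60 (-0.80 to -0.41). MTERF4 had the most reads there and a ratio of -0.12, with 51.0% of its exon bases shared. The 10 replication genes ran from -0.80 to 0.90, with TOP3A, a topoisomerase, highest and POLG, the catalytic subunit of the DNA polymerase (7.66% of exon bases shared), at 0.76. In the group of 15 RNA processing genes, which held 3 of the 4 calls, the median was 0.09, and NGRN had the most reads and a ratio of -0.09 with 22.4% of its exon bases shared.

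None of the other roles but tRNA modification, with GTPBP3, held a call. The 5 polyadenylation and decay genes had a median of -0.18, which was the value of REXO2, an oligoribonuclease, and ENDOG, with 39.2% of exon bases shared, stood at 0.71. The 15 tRNA modification genes had a median of -0.02, the value of TRNT1, which adds the CCA end and shares 9.28% of its exon bases. The 8 rRNA modification genes had a median of 0.12, with the methyltransferase gene MRM2 at 0.11 and TRUB2 at 0.65. The 5 rRNA assembly genes had the highest median, 0.61, but ran from -0.62 to 0.75. Of these 5, 3 shared at least 5% of their exon bases with other genes. ERAL1 (12.2% shared), an rRNA chaperone, stood at 0.12 and METTL17 (13.4% shared) at 0.75.

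Most of the RNAs on which the members' proteins act stood higher in the IP than the members' own mRNAs. Of the 37 mitochondrially encoded genes, 34 were called higher in the IP, and 1, MT-CO1, was called lower at -1.17 (-1.18 to -1.16). MT-CO2 and MT-CO3, the 2 that were not called, stood at 0.94 and 0.72, within the range of the members, and were named after their values were seen. Genes named as copies of mitochondrial ones were also kept, such as MTCO1P12 at -0.96, MTATP6P1 at 0.16 and MTND1P23 at 2.08. These too were named after their values were seen. How reads that match both a copy and its original were assigned is not given, and the intervals do not cover it. The median log2 ratio was 2.05 for the 13 mRNAs and 5.94 for the 22 tRNA genes, where reads need not be of mature tRNAs. The summed reads of each class gave lower log2 ratios, 1.18 for the mRNAs and 4.27 for the tRNA genes. MT-CO1 held 285979 of the 608869 mRNA reads in Input. All tRNA genes together had 11371 reads in Input, and the ratios of some rest on few reads there. Among tRNA genes MT-TT was lowest at 2.47. MT-TV was highest, with 1017 reads in the IP but none in Input. It stood at least 342-fold higher in the IP against a floor of 3 reads in Input, a log2 ratio of 8.42. This floor leaves out the counting error of the IP, and the lower limit of the exact interval was 8.12, or 7.11 in pairs. MT-RNR2 and MT-RNR1, the rRNA genes, stood at 3.57 and 4.37, with 3080 and 369 reads in Input. None of the 10 members and none of the 65 other nuclear genes reached a log2 ratio of 1.5.

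**Figure D4:**
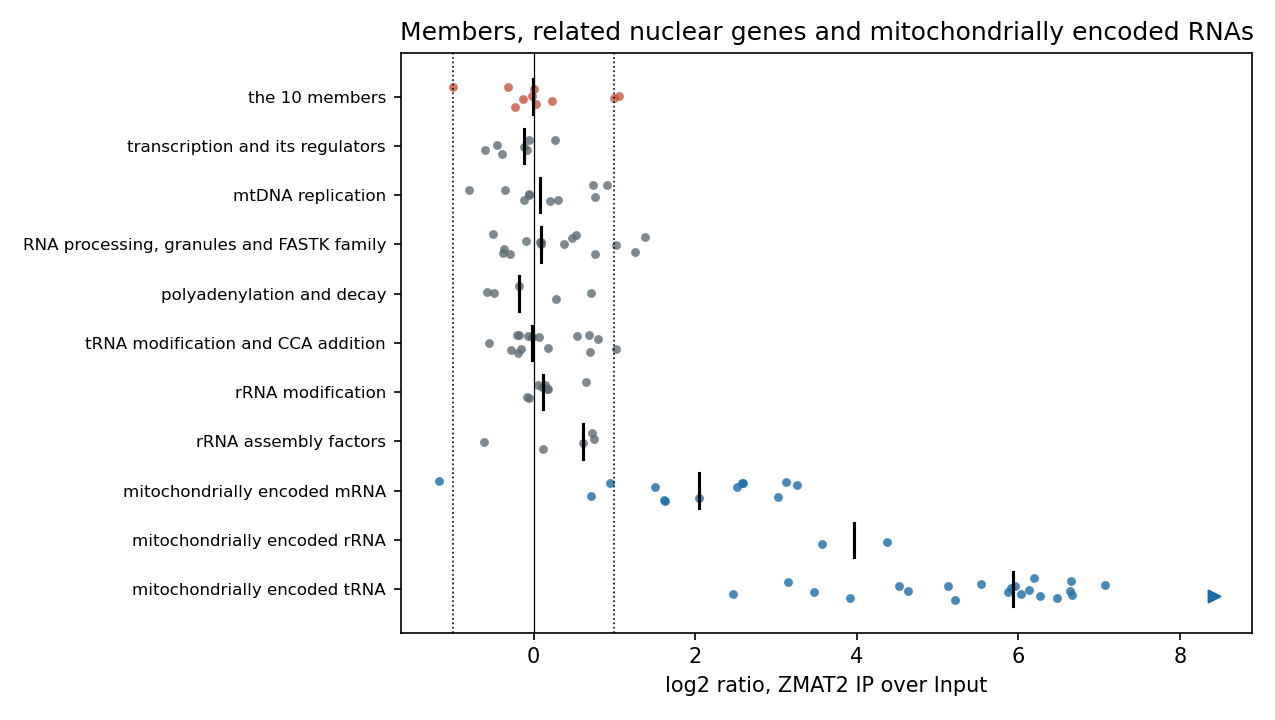
Log2 ratio of ZMAT2 IP over Input (x axis) for the 10 members (red), the other nuclear genes by role (grey) and the mitochondrially encoded RNAs by class (blue), 1 point per gene. Black bars are medians, dotted lines mark 2-fold, and the arrowhead is MT-TV against a floor of 3 reads in Input. The 5 rRNA assembly genes, which run from -0.62 to 0.75, have a median of 0.61. The members and the other nuclear groups centre near 0, with medians from -0.18 to 0.12. The tRNA genes lie farthest to the right.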

How the data were processed

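Per the labels' protocols, most of a HUH7 lysate was precipitated with anti-ZMAT2 antibody, a smaller share was kept as Input, and a stranded mRNA kit was used. The authors deposited 1 table of raw read counts, whole numbers for every gene in each library with no normalization, per the file headers. Tools listed in the submitters' processing notes are STAR 2.5.3a, fastp 0.23.4 and edgeR 3.12.1, with the build GRCh38. The counting tool, its strand setting and its annotation were not given in the sources used here.

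Here, TMM factors from edgeR 4.0.16 (R 4.3.3) were computed over genes whose reads in the 2 libraries sum to at least 20, as factors only, since 1 library per group allows no edgeR test. The log2 ratio used a prior count of 0.5, and its 95% interval is the exact (Clopper-Pearson) one for the fraction of a gene's reads that came from the IP. It covers counting error only. Among genes with 1 to 6 reads, 77.9% of IP and 67.1% of Input counts were even, so intervals on pairs are given too. Intervals of differences between quotients are Wald intervals on the log scale. RPKM uses the deposited length.

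Current names and biotypes came from the RefSeq table of GRCh38.p14 by symbol or older symbol and position, and promoter sequences from RefSeq on the same build. All 10 members matched by symbol. One marker of another cell type is not reported here.

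The members and lists were chosen with earlier results of these data known. Named are all members and, per role of the other genes, the one with the most reads, the one farthest from 0 and any called, each with at least 100 reads, and in each class of mitochondrially encoded genes the highest, the lowest and the one with the most reads, thinned where not needed. No search for genes of like pattern was made, because 2 libraries give 1 ratio per gene. The alternatives were DESeq2 1.42.0 size factors, library totals, upper-quartile factors, other filters, a prior count of 2, pairs, and a 1.5-fold threshold.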

Additional observations from a re-analysis of the deposited data

How the results depend on the processing

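POLRMT kept a log2 ratio of 0.95 to 1.07, ELAC2 of 0.89 to 1.01 and TFAM of -1.10 to -0.98 over 7 alternatives that can change a ratio, so each stayed on its side of 0 while its 2-fold call depended on the scaling. The members called higher numbered 0 on library totals, 2 without a filter on low counts and 2 at 1.5-fold, in place of 1. Those called lower numbered 1 on library totals, with upper-quartile factors, with a minimum of 100 reads and at 1.5-fold, in place of 0. Library totals moved the median of all genes by -0.11, that of the members to -0.11 and that of the other nuclear genes to -0.029. Of the 65 other nuclear genes, 2 were called higher on library totals and 16 at 1.5-fold, in place of 4, with 3 called lower at 1.5-fold. Over all 17915 genes kept, 3196 were called higher and 2868 lower at 1.5-fold, so 52.7% of these calls were higher. The number called among the 65 depended on the threshold and the scaling, and its split was not tested. The calls among the members and the other nuclear genes stand beside those over all genes under the same setting. Of the 17915 genes kept, 1328 were called higher and 1247 lower in the main setting. On library totals these were 1023 and 1561, with upper-quartile factors 1280 and 1294, and at 1.5-fold 3196 and 2868. At a minimum of 100 reads they were 761 and 582 of 13718 genes, and without a filter 2004 and 2013 of 27776. Under the alternatives that could be applied to them, 34 to 36 mitochondrially encoded genes were called higher and 1 lower. LRPPRC, TFB2M and SUPV3L1 changed sign between settings, and on library totals LRPPRC (-0.10), SLIRP (-0.23), PNPT1 (-0.34), ELAC2 (0.89) and TFAM (-1.10) left their counting intervals. No paired analysis was possible because each group holds 1 library, and none could be left out.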
